A study of Mus musculus with 18 samples.

Results

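The comparison of older 3TC-treated with older control mice asks what 6 weeks of 3TC did to RNA levels in the hippocampus late in life. Its members were grouped by their sample labels. These were 6 mice aged 20 months that drank 3TC at 2 mg/mL for 6 weeks and 6 untreated mice of the same age. Together they are 12 of the 18 mice sequenced. Both groups were C57/B6 mice, with 3 males and 3 females each, and the tissue was the left hippocampus. The remaining 6 mice, 9 months old and untreated, served here to estimate the spread and as a reference for tissue markers. Each mouse gave 1 library, and the mice are named by the codes in their labels (DMO and DFO for treated males and females, CMO and CFO for control males and females). The comparison was made with and without the treated female DFO4, whose library carried RNA of thalamic genes at a level seen in no other mouse.

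3TC, also called lamivudine, is an analog of cytidine that cells convert to its triphosphate, which ends the DNA chain when a reverse transcriptase takes it up. It was developed against retroviruses, and it also acts on the reverse transcriptases of endogenous retrotransposons. The transposable elements (TEs) that copy themselves through RNA include LINEs such as L1, the SINEs that depend on them, and LTR elements such as the intracisternal A particles (IAPs) of the mouse. DNA copied from such RNA can be sensed in the cytoplasm and lead to type I interferon signaling. The drug acts after transcription, so that TE RNA is not its direct target.

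The data were whole-number counts for 15644 genes and 1146 TE subfamilies. Total counts per mouse were 37869292 to 48506225 in the 6 treated and 34584615 to 49126203 in the 6 control mice, of which genes took 6526497 to 12916481 and 6006933 to 11084657. Levels are given as CPM, the count of a feature scaled to the library's total, after TMM normalization, with genes and TEs in 1 scale. Because TEs took most counts, gene CPM values are low in number. The reads behind them differ by gene, from 441 to 698 per older mouse for SPATA13 to 8 to 32 for the interferon gene IFNB1. A mean count above 10 was reached by 15635 genes and 1139 TEs, which were tested together by edgeR's quasi-likelihood test, with Benjamini-Hochberg adjustment over all of them. These are bulk samples, in which fewer cells of a type and less RNA per cell cannot be told apart.

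No gene and no TE was called higher or lower in older 3TC-treated mice. With all 12 mice, 0 of 16774 features passed at an adjusted p of 0.05 (0.0% called) and the smallest adjusted p from edgeR was 1.0. At an unadjusted p under 0.05, 141 features were higher (0.841%) and 53 lower (0.316%), all of them genes. With no differences and evenly spread p, a share of about 0.05 of features would pass this threshold, more than did here. Without DFO4 there were again 0 calls, with 80 features higher (0.477%) and 38 lower (0.227%) at that unadjusted threshold. As shares of the genes tested, these were 0.902% and 0.339% with all mice and 0.512% and 0.243% without DFO4. The same 68 genes were in both sets, 35.1% of the first and 57.6% of the second. DESeq2 also called 0 features, with 132 higher and 46 lower at an unadjusted p under 0.05, and 68 and 40 without DFO4. The median log2 fold change over the genes tested was 0.01, and the middle of the distribution was narrow, with the 5th percentile at -0.18 and the 95th at 0.18. For 99.0% of genes the 95% confidence interval of the log2 fold change lay within 1 of 0, and for 72.9% it lay within 0.5 of 0, so that the intervals held no change above 2-fold for nearly every gene, while for many genes they held smaller ones. Single mice weighed on the unadjusted counts. The number higher was 321 without DMO5, 83 without CMO3 and 93 without CFO3, and the number lower was 195 without DFO5, 83 without CFO2, 35 without CFO1, 32 without CMO3, 27 without DFO8 and 24 without DMO2.

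In all, 4 genes had a log2 fold change beyond 1 in either direction, and they were region markers: SLC17A6, TCF7L2 and SHOX2 of the thalamus on the higher side and TTR of the choroid plexus on the lower side. Without DFO4 the 2 such genes were TTR and ENPP2, both transcribed strongly in choroid plexus. TCF7L2, SHOX2 and TTR were picked out after their values were seen.

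Thalamic genes were high in 1 mouse. SLC17A6, which encodes the vesicular glutamate transporter VGLUT2 of thalamic neurons, was at 101 CPM in DFO4, at 9.88 to 14.2 CPM in the other 5 treated mice and at 8.65 to 13.2 CPM in the 6 control mice. TCF7L2, a transcription factor of thalamic neurons, was at 57.3 CPM in DFO4, at 5.65 to 9.0 CPM in the other treated mice and at 6.84 to 9.29 CPM in controls. PRKCD, a protein kinase C that marks thalamic relay neurons and was likewise chosen after its values were seen, stood at 74.7 CPM in DFO4 and between 6.46 and 14.9 CPM in the other 11 older mice. Apart from DFO4, treated and control mice overlapped for all 3 genes. Of 28 thalamic genes tested, 27 had a log2 fold change above 0 (median 0.48) and 6 were at an unadjusted p under 0.05, against 53.4% of all genes above 0 and 0.902% higher at that threshold. Without DFO4, 15 of 28 were above 0, the median was 0.02 and 1 gene, CBLN4, remained under 0.05. DFO4 had the highest value of the 12 older mice for 26 of the 28 genes. SLC17A6 went from a log2 fold change of 1.25 (standard error 0.47) to 0.09 (standard error 0.18) without it.

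Genes of hippocampal principal neurons were low in the same library. NEUROD6, a transcription factor of pyramidal neurons chosen after its values were seen, was at 1.56 CPM in DFO4 and between 17.5 and 36.9 CPM in the other 11 older mice. The summed level of the 28 hippocampal genes tested was 225 CPM in DFO4, 388 to 595 CPM in the other treated mice and 405 to 590 CPM in controls, and DFO4 had the lowest value of 12 for 21 genes. The defining genes of dentate granule cells (PROX1, DSP, C1QL2) and of CA1 (FIBCD1, WFS1) were detected in every older mouse, DFO4 included. Detection alone does not place the tissue, because 31 genes restricted to tissues other than brain also had counts (median 83). Of the 28 hippocampal genes, 3 had a log2 fold change above 0 (median -0.23), and without DFO4 5 (median -0.13), so that the median of the list lay below that of all genes in both fits. PKP2, LCT and C1QL2 were lower at an unadjusted p under 0.05 with all mice, 3 of 28, against 0.339% of all genes. Without DFO4, 2 of the 28 were lower and 1 was higher at that threshold, against 0.243% and 0.512% of all genes. PKP2, a plakophilin of cell junctions, ranged from 4.86 to 9.81 CPM (median 7.47) in treated and from 8.34 to 10.1 CPM (median 9.67) in control mice, with a log2 fold change of -0.34 (standard error 0.12) and of -0.24 without DFO4. LCT, which encodes lactase and marks dentate granule cells in the mouse, ranged from 5.83 to 16.6 CPM (median 13.2) in treated and from 14.6 to 22.7 CPM (median 15.9) in control mice, at -0.46 with and -0.32 without DFO4. C1QL2, a complement-like protein of mossy fiber synapses, was at -0.56 with and -0.44 without DFO4. With DFO4 and the treated male DMO2 both left out, PKP2 was at -0.21 and LCT at -0.21, and no hippocampal gene was lower at an unadjusted p under 0.05.

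**Figure D1:**
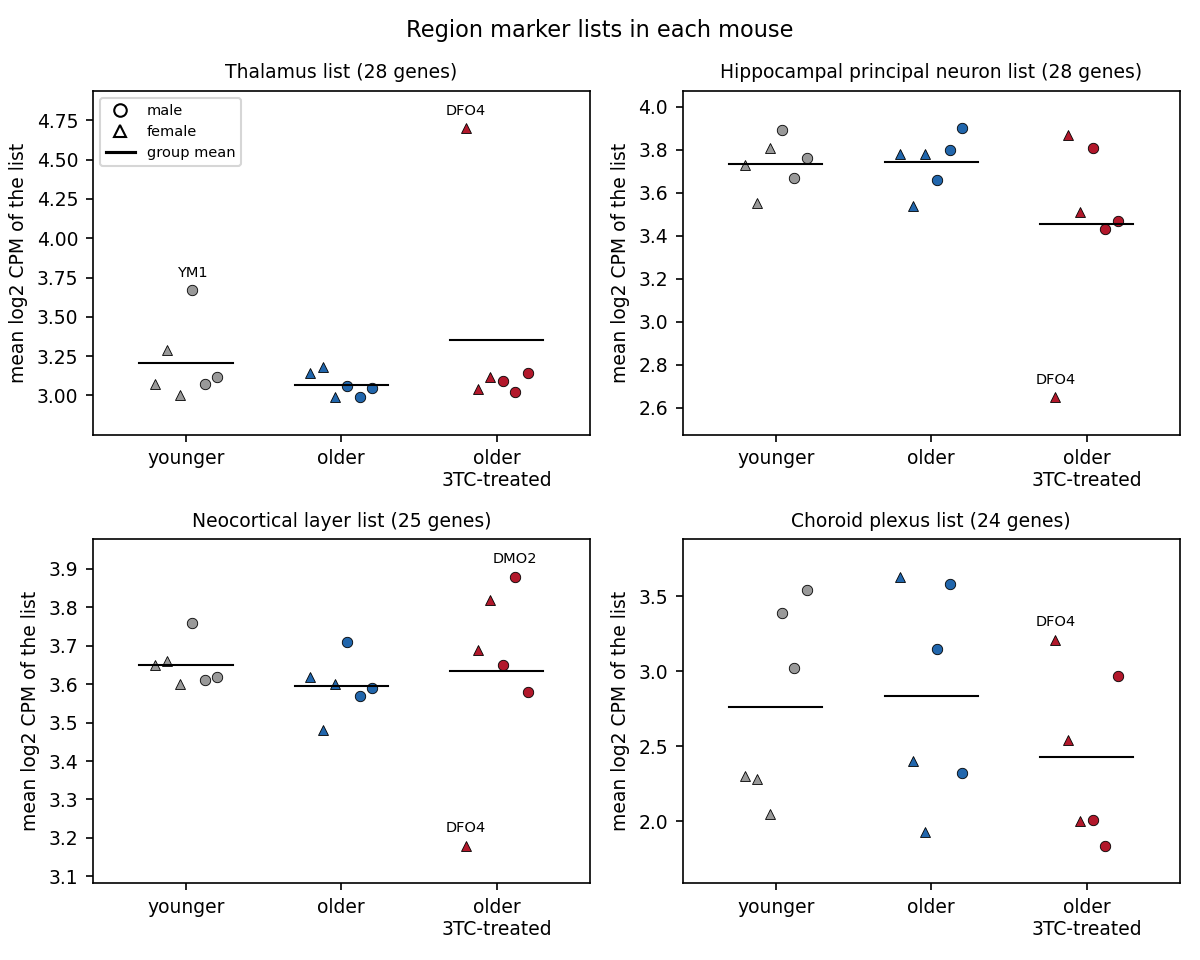
Mean log2 CPM of 4 region marker lists in each mouse, by group (gray, younger; blue, older; red, older 3TC-treated; circles, males; triangles, females; lines, group means; axes do not start at 0). DFO4 stands at 4.7 for the thalamus list, where the other older mice lie between 2.99 and 3.18, and at 2.65 for the hippocampal list, where they lie between 3.43 and 3.9. Choroid plexus levels spread widely in every group.

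Several neocortical layer genes were among those with a small p. Neocortex adjoins the hippocampus, and some of these genes are also used by hippocampal or thalamic neurons. RORB, a nuclear receptor of layer 4 neurons, ranged from 17.9 to 34.1 CPM (median 24.4) in treated and from 15.8 to 19.9 CPM (median 17.9) in control mice, with a log2 fold change of 0.49 and a standard error of 0.15 (adjusted p = 1.0 by edgeR, unadjusted p = 0.00391). CUX2, a transcription factor of upper layers, ranged from 19.3 to 32.5 CPM (median 22.0) in treated and from 16.4 to 21.2 CPM (median 17.7) in control mice, at 0.38. Above all controls lay 4 treated mice for RORB and 3 for CUX2, and the groups overlapped for both. Of 25 neocortical genes tested, 18 were above 0 (median 0.12), with 4 higher and 1 lower at an unadjusted p under 0.05, where 0.902% of all genes were higher and 0.339% lower. Without DFO4, 21 were above 0 (median 0.13), and 6 were higher at that threshold, among them RORB, CUX2, TSHZ2, TBR1 and NR4A2, against 0.512% of all genes. Of these, TSHZ2 was among the 10 genes with the smallest p on the higher side without DFO4, and RORB and CUX2 were not.

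The treated male DMO2 had the highest level of this list. Its mean log2 CPM was 3.88, against 3.18 to 3.82 in the other treated and 3.48 to 3.71 in the control mice, and DMO2 was the highest of the 12 for 7 of the 25 genes. Without DMO2 the median of the list was 0.02. With both DFO4 and DMO2 left out it was 0.09, with 2 genes higher at an unadjusted p under 0.05, and RORB was at 0.25 and CUX2 at 0.17. Over all genes, 31 were then higher and 14 lower at that threshold.

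**Figure D2:**
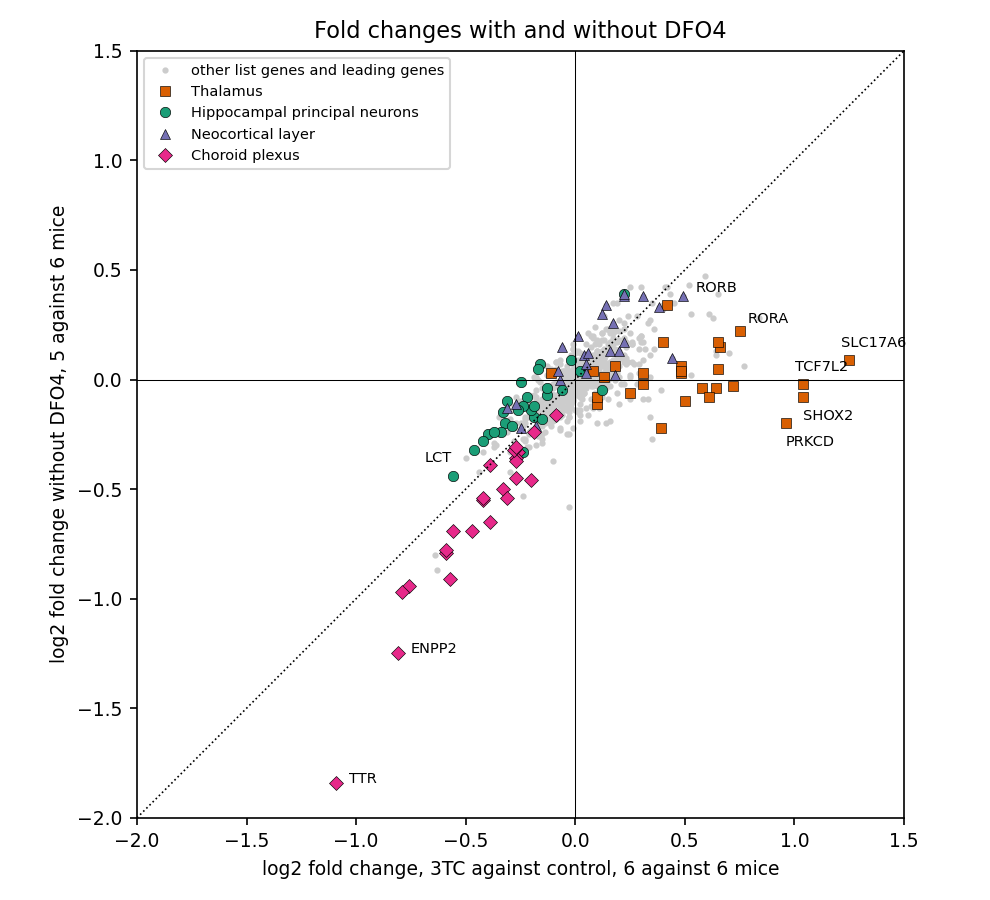
Log2 fold change of older 3TC-treated against older control mice with all 12 mice (x axis) and without DFO4 (y axis), 1 point per gene, for 4 region marker lists (colored) and the other list genes and leading genes (gray); the dotted line marks equal values. Most thalamus genes drop to near 0 on the y axis (SLC17A6 from 1.25 to 0.09), while most choroid plexus genes lie below the dotted line (TTR from -1.09 to -1.84).

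Of the 10 genes with the smallest p on the higher side, DFO4 was the highest of the 12 mice for 6 and DMO2 for the other 4. TMSB10, which binds actin monomers, ranged from 10.9 to 22.6 CPM (median 14.1) in treated and from 8.63 to 13.6 CPM (median 10.4) in control mice. Its log2 fold change was 0.59 with a standard error of 0.17 (adjusted p = 1.0 by edgeR, unadjusted p = 0.00194), and it was 0.47 without DFO4. TMSB4X, a close paralog that can share reads with it, was at -0.55 (standard error 0.32, and -0.44 without DFO4), on the other side of 0. CAMK2D, the delta subunit of the calcium/calmodulin-dependent kinase II, ranged from 24.2 to 41.3 CPM (median 29.8) in treated and from 20.7 to 26.2 CPM (median 22.4) in control mice, at 0.45 and at 0.35 without DFO4.
BRINP3, a neural protein induced by retinoic acid, was at 0.43 with all mice, 0.39 without DFO4 and 0.26 with DMO2 also left out, and its highest value, 10.7 CPM, was that of DMO2. CHRNA4, a subunit of the neuronal nicotinic receptor, was at 26.6 CPM in DFO4, 9.52 to 12.2 CPM in the other treated mice and 7.64 to 10.1 CPM in controls, with a log2 fold change of 0.61 that was 0.30 without DFO4. GRIA4, an AMPA receptor subunit (0.49, and 0.38 without DFO4), DPP10, a partner of potassium channels (0.52 and 0.43), PLCXD2 (0.65 and 0.39) and NECAB1, a neuronal calcium-binding protein (0.42 and 0.42), completed these 10 with RORB and CUX2. Without DFO4 the smallest p on the higher side was that of PDZRN3, a ubiquitin ligase, at 9.5 to 12.6 CPM in 4 of the 5 treated mice, 7.66 CPM in DFO5 and 6.34 to 10 CPM in controls. Its log2 fold change was 0.42 with a standard error of 0.13 (adjusted p = 1.0 by edgeR, unadjusted p = 0.00309). It was at 0.30 with DFO4, where it was lowest, at 5.12 CPM. TSHZ2 (0.38), SOX5 (0.24) and FNBP1L (0.42) joined the 10 in that fit.

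On the lower side, the smallest p was that of SPATA13, an exchange factor for small GTPases. It ranged from 11 to 12.9 CPM (median 12.7) in treated and from 13 to 15.6 CPM (median 14.6) in control mice, so that the groups did not overlap, and its log2 fold change was -0.23 with a standard error of 0.07 (adjusted p = 1.0 by edgeR, unadjusted p = 0.00444), or -0.20 without DFO4. In the mm10 build, the GENCODE annotation places TMSB10 on chromosome 6 (72957347 to 72958748, minus strand), CAMK2D on chromosome 3 (126596302 to 126846326, plus strand), RORB on chromosome 19 (18930605 to 19111196, minus strand) and SPATA13 on chromosome 14 (60634001 to 60764556, plus strand). PLEKHA2, which binds membrane phosphoinositides, ranged from 6.61 to 12.6 CPM (median 10.9) in treated and from 12.1 to 15.9 CPM (median 13.4) in control mice, at -0.35 with and -0.25 without DFO4. DFO4 was the lowest mouse for both. DRD5, a dopamine receptor (-0.28), KLK8, a neuronal serine protease (-0.37), MYCL, a transcription factor (-0.31), MCUR1, of mitochondrial calcium uptake (-0.23), METTL23, a methyltransferase (-0.42), DENND2A (-0.21) and KRT9, a keratin (-0.27), made up the 10 with PKP2, and without DFO4 each kept its sign with a smaller size. That fit brought forward genes that were high in DFO4. EXOSC6, a subunit of the RNA exosome, ranged from 1.77 to 2.58 CPM in the other 5 treated mice and from 2.67 to 3.5 CPM in controls, at -0.42, and stood at 3.37 CPM in DFO4. HTR2C, a serotonin receptor abundant in choroid plexus, went from -0.03 to -0.58 when DFO4 was left out.

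The groups did not overlap in either direction for 8 genes, 6 higher (0.0358% of the features tested) and 2 lower (0.0119%). Random labels would separate a share of 0.00216 of features (924 assignments of 6 against 6 mice), more than was seen here. The higher genes were KCNT1, DCBLD2, EIF2AK3, GARNL3, PTGER1 and PTPRM, and the lower ones SPATA13 and PAXIP1. All but KCNT1 and SPATA13 were picked out after their values were seen. KCNT1, a sodium-activated potassium channel, ranged from 20.6 to 30.9 CPM in treated and from 17.1 to 20.4 CPM in control mice, and its log2 fold change of 0.30 was 0.20 without DFO4. EIF2AK3, the PERK kinase of the unfolded protein response, was at 11.8 to 14.9 CPM against 10.8 to 11.7 CPM, a log2 fold change of 0.19 (0.17 without DFO4). Without DFO4 the number of such genes was 8 higher (0.0477%) and 4 lower (0.0238%), with NPAS2 and CIZ1 added above and EXOSC6 and TPCN1 below.

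**Figure D3:**
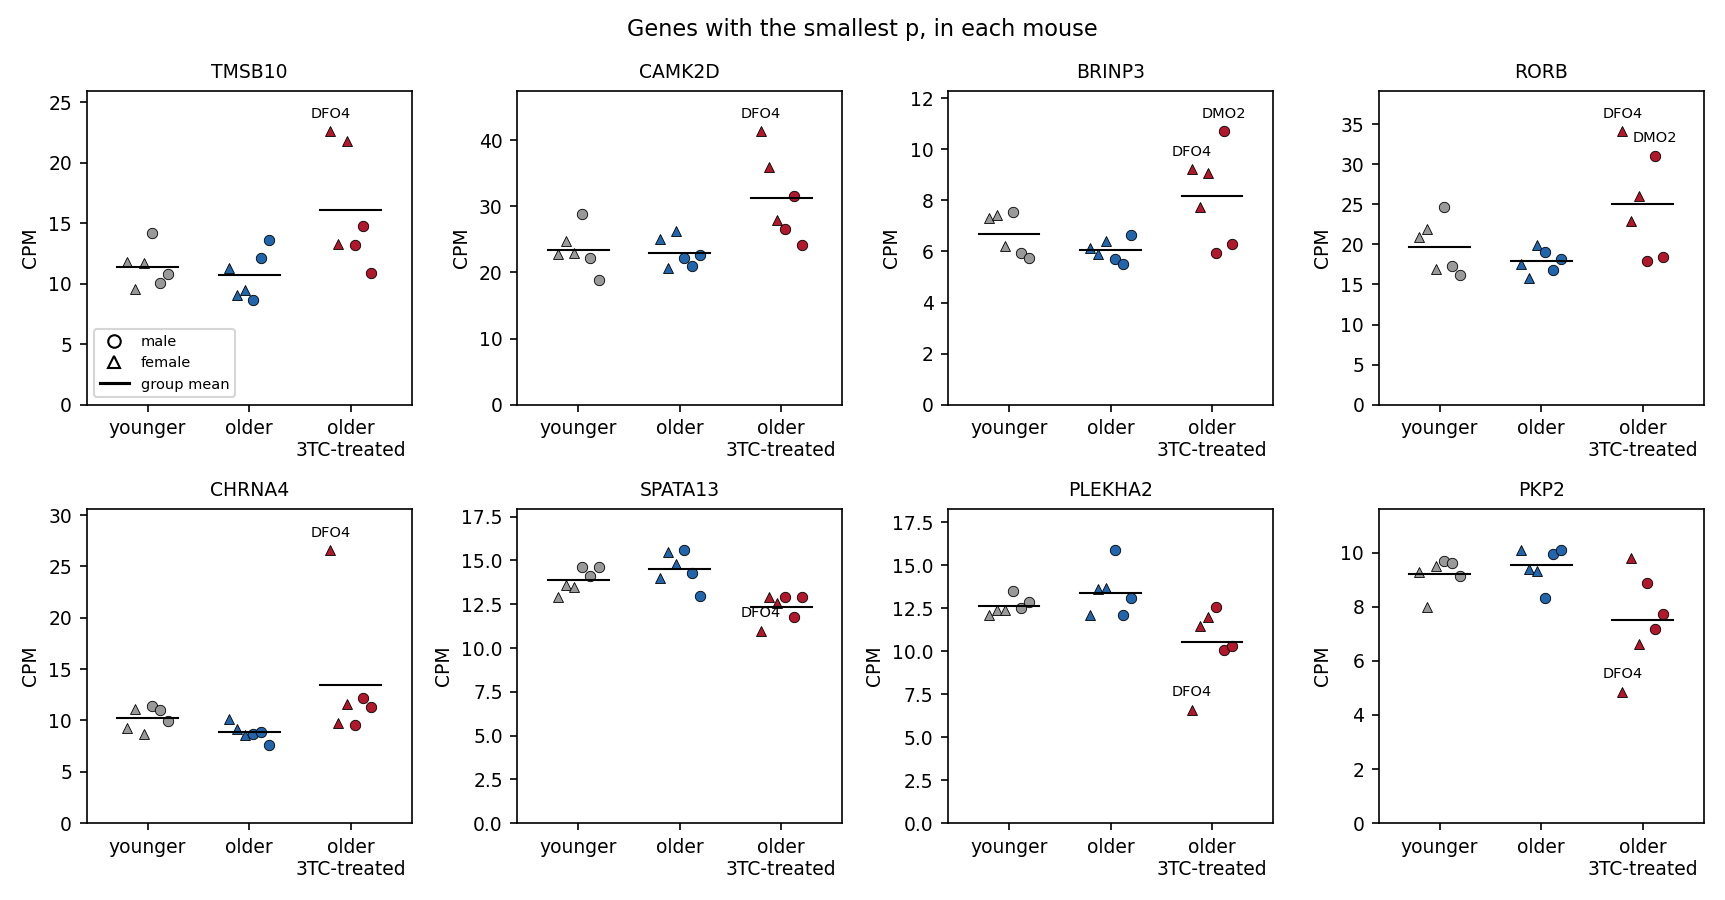
CPM in each mouse for 8 of the genes with the smallest p, by group (circles, males; triangles, females; lines, group means; axes start at 0). DFO4 is the highest treated mouse for TMSB10, CAMK2D, RORB and CHRNA4 and the lowest for SPATA13, PLEKHA2 and PKP2. Of these 8, treated and control mice do not overlap for SPATA13.

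Choroid plexus genes lay below 0 as a list and varied widely between mice of the same group. The choroid plexus, the epithelium that makes cerebrospinal fluid, hangs in the ventricle beside the hippocampus. TTR, its main secretory product, ranged from 2.58 to 351 CPM (median 70.2) in treated and from 3.9 to 559 CPM (median 189) in control mice, and the ranges overlapped, with 2 control mice above every treated mouse. All 24 choroid plexus genes had a log2 fold change below 0, with a median of -0.39 and none at an unadjusted p under 0.05. Without DFO4, which was high for them, all 24 were again below 0 (median -0.54) and 5 were under 0.05: SOSTDC1, a secreted antagonist of BMP and Wnt signaling (-0.97), CLDN2, of tight junctions (-0.69), CLIC6, a chloride channel protein (-0.91), FOLR1, the folate receptor (-0.79), and COL8A1, a collagen (-0.65). Over all genes 0.243% were lower at that threshold. With DMO2 also left out, 0 of the 24 were under 0.05 (median -0.46), and DMO2 was the lowest of the 12 mice for 8 of them. Without the control mouse CFO1 and with DFO4 kept, the median was -0.22. The summed level of the list was 132 to 155 CPM in DMO2, DMO1 and DFO8, 390 to 791 CPM in the other 3 treated mice, 143 to 339 CPM in 3 control mice and 656 to 1150 CPM in the other 3. The genes share 1 source of tissue and so are not independent of each other.

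Genes that handle the drug had small differences. DCK, the deoxycytidine kinase that adds the first phosphate to 3TC, ranged from 6.47 to 8.2 CPM (median 6.97) in treated and from 5.92 to 6.7 CPM (median 6.22) in control mice. Its log2 fold change was 0.18 with a standard error of 0.07 (adjusted p = 1.0 by edgeR, unadjusted p = 0.0232), 5 treated mice lay above the highest control, and it was at 0.14 without DFO4. SLC29A2, an equilibrative nucleoside transporter, was at 0.19 (0.18 without DFO4), and POLG, the mitochondrial DNA polymerase, at 0.04 (0.02). Of 30 genes of 3TC phosphorylation, transport and mitochondrial DNA upkeep, 19 were above 0 (median 0.03), and 17 without DFO4 (median 0.01). DCK was the 1 member at an unadjusted p under 0.05 with all mice, where 0.902% of all genes were higher. Without DFO4, 0 of the 30 were under 0.05. Of 31 nuclear genes of the respiratory chain, 19 were above 0 (median 0.02) with all mice and 9 (median -0.05) without DFO4. Genes encoded in mitochondrial DNA were not analysed here.

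No innate immune gene was called in either fit, and the medians of their lists over both sexes lay near 0. Interferon-stimulated genes, the transcripts that cells make when type I interferon reaches them, had a median of -0.01 (15 of 31 above 0), and -0.03 without DFO4 (10 of 31). IRF9, part of the factor that carries the interferon signal to the nucleus, was the 1 member lower at an unadjusted p under 0.05 (log2 fold change -0.21, and -0.25 without DFO4), and IFI27 joined it without DFO4 (-0.36). Over all genes, 0.339% were lower at that threshold with all mice and 0.243% without DFO4. Nucleic acid sensors and their adaptors had a median of -0.03 (8 of 23 above 0), type I interferon ligands and receptors -0.01 (7 of 16), and cytokines, chemokines and adhesion genes -0.01 (13 of 28). Without DFO4 these medians were -0.03, 0.02 and -0.01.
TMEM173, which encodes the adaptor STING, ranged from 2.03 to 4.16 CPM in treated and from 3.0 to 4.34 CPM in control mice, at -0.07, and its kinase TBK1 was at 0.08, the factor IRF3 at 0.09 and the DNA exonuclease TREX1 at -0.05. The interferon receptor chains IFNAR1 and IFNAR2 were at -0.01 and -0.12. Without DFO4, TMEM173 was at -0.08, TBK1 at 0.08, IRF3 at 0.02, TREX1 at -0.10, IFNAR1 at 0.01 and IFNAR2 at -0.13. The microglial gene AIF1 was at 0.05, the astrocytic GFAP at -0.13 (54.4 to 143 CPM in treated, 65.3 to 124 CPM in control mice) and the adhesion molecule ICAM1 at 0.06, and they were at 0.02, -0.07 and 0.01 without DFO4. None of them had an unadjusted p under 0.1 from edgeR.

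Several cytokine and interferon transcripts had low levels. IL6 ranged from 0.427 to 1.35 CPM in treated and from 0.52 to 1.26 CPM in control mice (log2 fold change 0.16, standard error 0.30), and TNF was at -0.14, IL1B at -0.03, IFNG at 0.03 and IFNB1 at 0.16. Without DFO4, IL6 was at 0.17, TNF at -0.14, IL1B at 0.04, IFNG at 0.04 and IFNB1 at 0.21. By counts per kilobase of exon, IL6 stood at percentile 1.07 of genes and IFNB1 at percentile 4.93, both lower than the median percentile, 28.7, of 31 genes restricted to tissues other than brain. The 95% interval of the log2 fold change was -0.46 to 0.78 for IL6 and -0.58 to 0.89 for IFNB1. Interferon alpha genes are near-identical copies among which reads can be split, and their values (IFNA1 at -0.30, IFNA5 at -0.37, IFNA14 at 0.24, and -0.33, -0.31 and 0.29 without DFO4) are uncertain for that reason as well.

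Among glial lists, those of myelin, oligodendrocyte precursors, and complement and antigen presentation had medians that changed sign without DFO4. Of 18 genes of myelin and mature oligodendrocytes, 16 were above 0 (median 0.12) with all mice and 3 (median -0.09) without DFO4, in which the summed level was 2330 CPM, against 689 to 1660 CPM in the other treated and 786 to 1620 CPM in the control mice. Oligodendrocyte precursor genes went from 0.07 (12 of 15 above 0) to -0.01 (7 of 15), and genes of complement and antigen presentation from 0.02 (9 of 16) to -0.03 (7 of 16). Homeostatic microglial genes had a median of 0.00 (9 of 15 above 0), phagocytic and lysosomal microglial genes -0.05 (5 of 16), reactive astrocyte genes 0.00 (8 of 15) and genes of homeostatic astrocytes 0.10 (15 of 19), and without DFO4 these medians were -0.01, -0.06, 0.00 and 0.02. By sex, with 3 against 3 mice each, 19 of 19 homeostatic astrocyte genes were above 0 in females (median 0.3) and 1 in males (median -0.2). Of the 12 older mice, DFO4 was highest for 10 of these genes and lowest for 2, DFO5 highest for 7 and DMO5 lowest for 9. No gene was called for a difference between the sexes. At an unadjusted p under 0.05, where 0.902% of all genes were higher, the 1 phagocytic microglial gene was SPP1, which encodes osteopontin. SPP1 went from 0.63 to 0.28 without DFO4. It was at 6.8 CPM in DFO4, at 1.94 to 2.99 CPM in the other treated mice and at 1.49 to 2.99 CPM in controls.

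Among lists of synaptic and activity genes, that of synaptic vesicle release had the highest median. Of 30 genes of synaptic vesicle release, 22 were above 0 in both fits, with medians of 0.13 and 0.10 and, without DFO5, 0.06. By sex, with 3 against 3 mice each, 27 of 30 were above 0 in females (median 0.29) and 8 of 30 in males (median -0.08). Of the 12 older mice, DFO5 was highest for 15 genes, DFO4 highest for 10 and lowest for 8, and CFO2 lowest for 13. Members of a list vary together and are not replicates, and no gene was called for a difference between the sexes. Higher at an unadjusted p under 0.05 with all mice were 5 of the 30, against 0.902% of all genes, and 1 without DFO4, against 0.512%. The 5 included SLC17A6 and RIMS3, an active zone protein (0.84, and 0.28 without DFO4), and the 1 member without DFO4 was STX1A, the syntaxin of the vesicle fusion complex (0.29). With DMO2 also left out, 0 were under 0.05 (median 0.07). Of 19 AMPA and NMDA receptor genes, 8 were above 0 (median -0.02) and 11 without DFO4 (median 0.01), with 3 and 1 under 0.05, GRIA4 among them in both fits. Of 27 potassium channel genes, 17 were above 0 (median 0.08) and 21 without DFO4 (median 0.08), with KCNT1 under 0.05 in both fits and the median at 0.02 without DFO5. In females 24 of these 27 were above 0 (median 0.23), and in males 9 (median -0.05). Of 30 immediate-early genes, whose transcription follows neuronal firing, 11 were above 0 (median -0.04), and 17 without DFO4 (median 0.02). DFO4 was the lowest of the 12 older mice for 18 of the 30 and the highest for 2. BDNF, the neurotrophin, was at -0.30 with and -0.18 without DFO4. ARC ranged from 8.88 to 23.9 CPM (median 19.5) in treated and from 14.8 to 33.0 CPM (median 20.8) in control mice, and its lowest value was that of DFO4 (log2 fold change -0.28, and -0.14 without DFO4). Of 18 clock genes, 17 were above 0 (median 0.09), and 15 without DFO4 (median 0.07), of which RORB and NPAS2, a partner of BMAL1, were under 0.05. Against these, 53.4% of all genes were above 0 with all mice and 50.7% without DFO4.

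**Figure D4:**
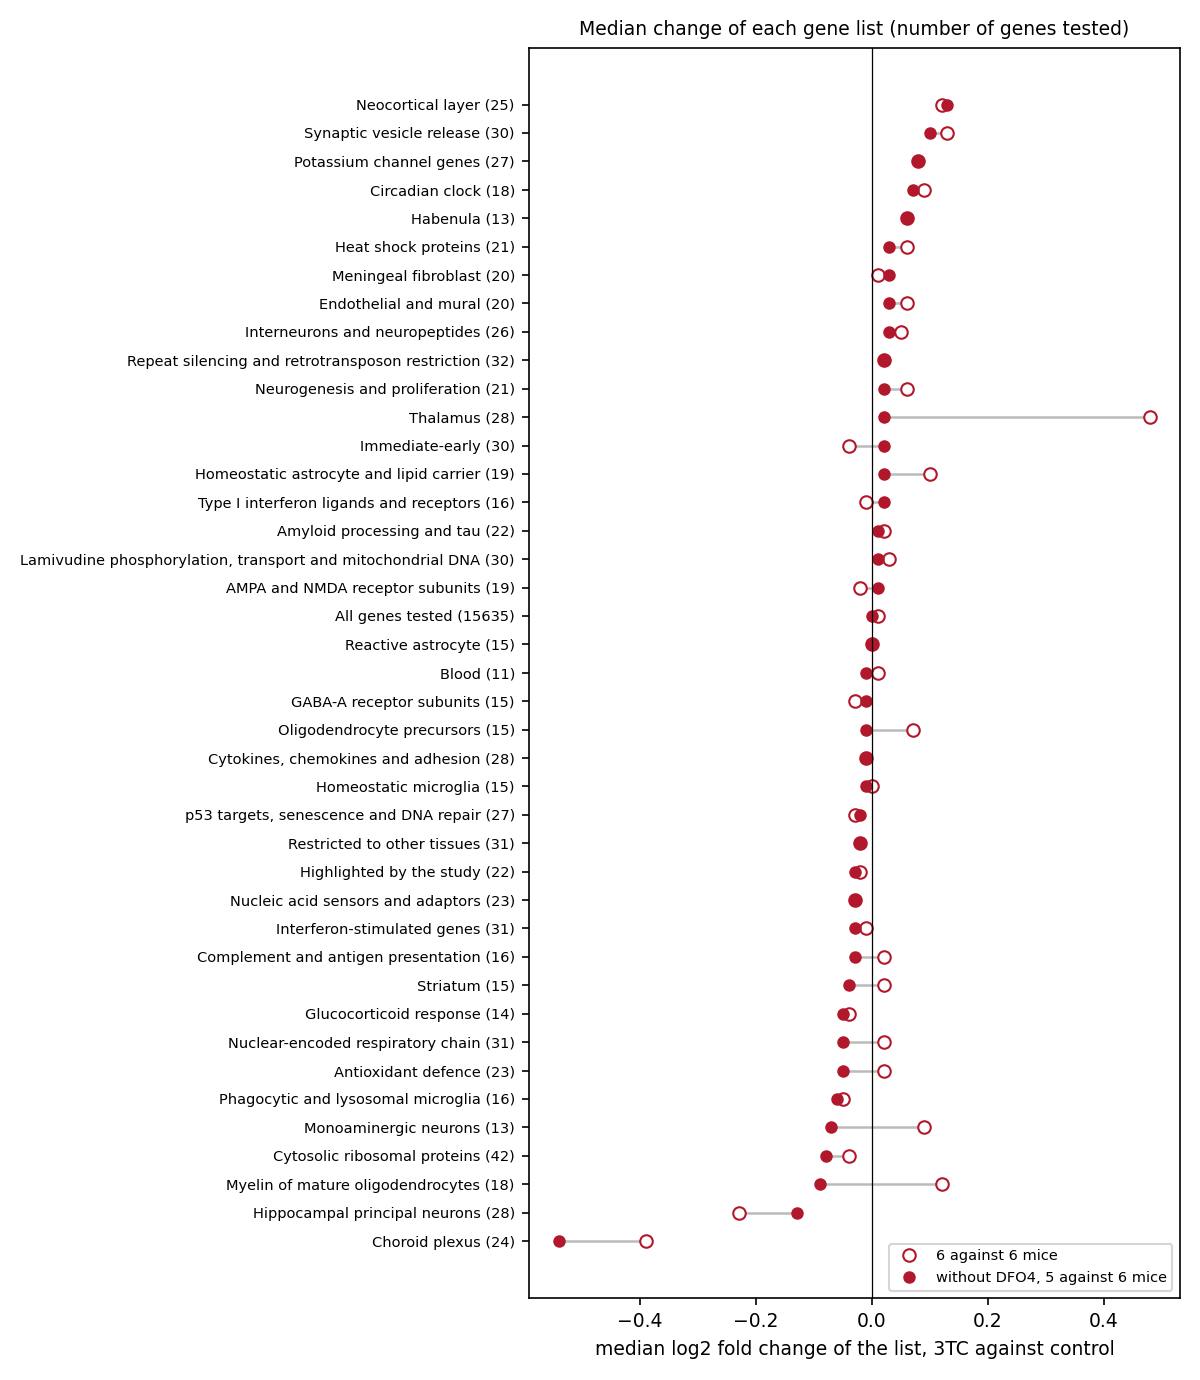
Median log2 fold change of each gene list with all 12 older mice (open circles) and without DFO4 (filled circles), with the number of genes tested in parentheses, ordered by the second value. The thalamus list moves most (0.48 to 0.02), the myelin list changes sign (0.12 to -0.09), and the choroid plexus list is lowest in both (-0.39 and -0.54).

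The groups differed in TE levels by less than the spread between mice. TEs took 76.6% ± 6.24 of counts (SD, n = 6) in older 3TC-treated and 77.3% ± 6.02 (SD, n = 6) in older mice, a difference of -0.708 percentage points (two-sided exact permutation p = 0.825, adjusted p = 0.996 over 5 shares). LINEs took 29.4% ± 2.4 against 30.1% ± 2.7 (exact permutation p = 0.654), SINEs 21.1% ± 1.36 against 21.0% ± 1.43 (exact permutation p = 0.807), LTR elements 21.8% ± 2.36 against 22.0% ± 1.98 (exact permutation p = 0.857) and DNA transposons 2.56% ± 0.204 against 2.57% ± 0.187 (exact permutation p = 0.996), with n = 6 each. Without DFO4 the exact permutation p for the 5 shares was 0.714 to 0.922, and the smallest that 6 against 6 mice can give is 0.00216. The sign of the difference in all TEs turned without DFO5 (1.44 points) or without CFO2 (0.975 points), the mice with the lowest share (65.9%) and the highest (85.7%).

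By subfamily, 0 of 1139 TEs were at an unadjusted p under 0.05 in edgeR, with or without DFO4, and 0 were called by DESeq2. With all mice 124 of 1139 (10.9%) were above 0 (median -0.04), and without DFO4 566 (49.7%, median 0.0), so that the shared small shift of the subfamilies moved with 1 mouse. Subfamilies share reads and vary together between mice, and their number is no number of replicates. The young mouse L1 subfamilies (named L1Md_), some of which still hold copies able to move, were all slightly below 0. L1Md_A ranged from 9710 to 21200 CPM (median 14800) in treated and from 11600 to 19800 CPM (median 16400) in control mice, at -0.06 (standard error 0.21), and L1Md_T was at -0.03 (standard error 0.22). Without DFO4 they were at -0.05 and -0.01. Of 25 IAP entries, 4 were above 0 (median -0.05), and 9 without DFO4 (median -0.02). IAPEz-int, the internal part of the IAP entry with the highest level, ranged from 3880 to 8960 CPM (median 6040) in treated and from 4320 to 8840 CPM (median 6180) in control mice, at -0.03 (standard error 0.22), or 0.0 without DFO4. IAPA_MM-int had the smallest p of the TEs on the lower side (-0.62, standard error 0.34, and -0.57 without DFO4), at 26.1 to 53.4 CPM in treated and 26.3 to 51.7 CPM in 5 control mice, with 162 CPM in the control male CMO1. On the higher side it was MER50B, an LTR element (0.27, standard error 0.15, and 0.30 without DFO4), at 1.91 to 2.5 CPM in treated and 1.6 to 1.93 CPM in 5 control mice, with 2.55 CPM in CFO2. Genes that silence TEs or restrict their movement had a median of 0.02 (23 of 32 above 0), with the DNA methyltransferases DNMT1 at 0.13 and DNMT3A at 0.15, and both at 0.12 without DFO4, where the list median was 0.02.

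**Figure D5:**
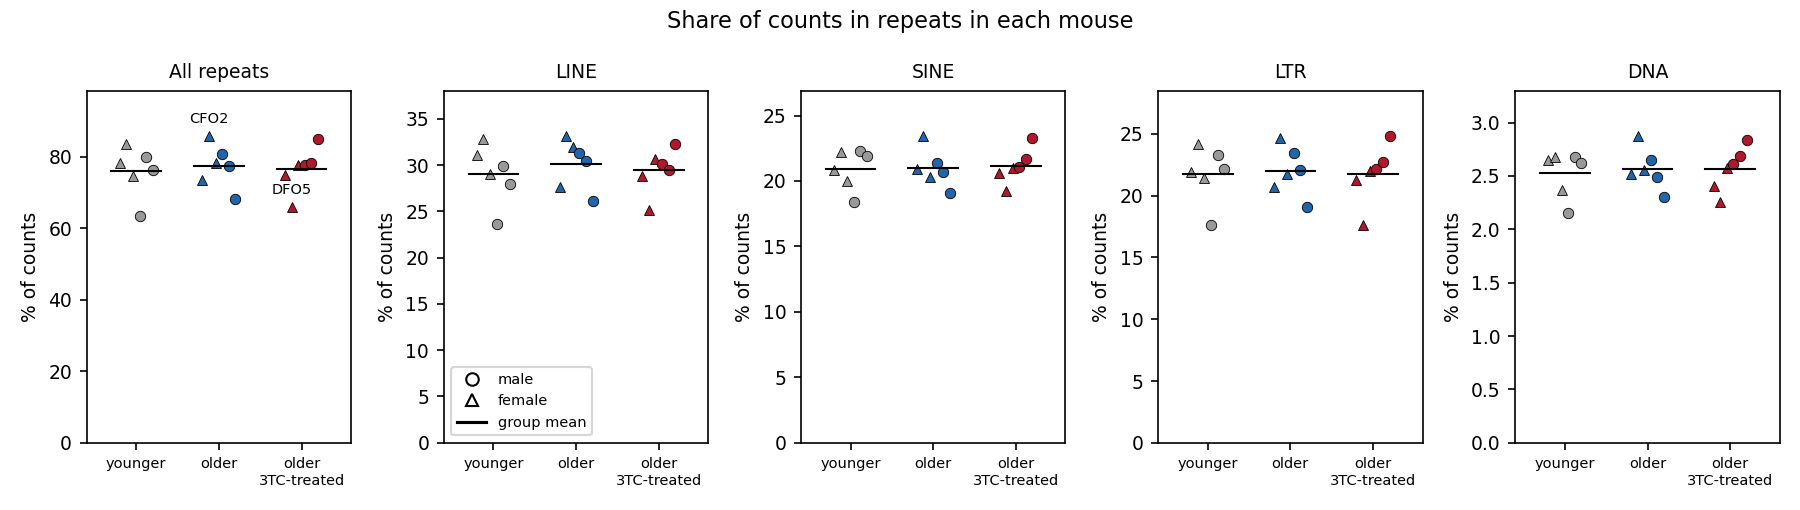
Share of all counts in TEs and in each of 4 TE classes, in each mouse, by group (circles, males; triangles, females; lines, group means; axes start at 0). The group means of all TEs are 76.6% in older 3TC-treated and 77.3% in older mice, and single older mice range from 65.9% (DFO5) to 85.7% (CFO2).

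No gene or TE was called for a difference in the effect of 3TC between females and males. The interaction gave 0 calls (smallest adjusted p = 0.447 from edgeR and 0.434 from DESeq2), while the log2 fold change was higher in females for 725 features (4.32%) and higher in males for 567 (3.38%) at an unadjusted p under 0.05. Together these exceed the share of 0.05 that evenly spread p would give with no differences. The features are not independent of each other, and the reason was not tested. Without DFO4, 1 of the 3 treated females, there were again 0 calls (smallest adjusted p = 0.419 from edgeR), with 679 and 515 features. The smallest p was that of SPCS1, a subunit of the signal peptidase, named after its values were seen, at a log2 fold change of 0.67 in females and -0.34 in males (difference 1.02, standard error 0.25), and at 0.66 in females without DFO4. Several lists had opposite medians in the sexes, with 3 against 3 mice in each, or 2 against 3 females without DFO4. The median of myelin genes was 0.46 in females (0.23 without DFO4) and -0.39 in males. That of respiratory chain genes was 0.33 in females (0.26) and -0.29 in males, and that of ribosomal protein genes 0.24 (0.22) and -0.32. Among innate immune lists, type I interferon ligands and receptors were at -0.40 in females (-0.46 without DFO4) and 0.27 in males, cytokines, chemokines and adhesion genes at -0.22 (-0.25) and 0.19, and interferon-stimulated genes at -0.15 (-0.31) and 0.12. TEs were at -0.40 (-0.41) and 0.29, and genes restricted to other tissues at -0.30 (-0.41) and 0.25.
The share of counts in TEs moved with these medians. It was 77.7% to 85.1% in treated and 68.3% to 80.8% in control males, and 65.9% to 77.8% in treated and 73.4% to 85.7% in control females, and the ranges overlapped in both sexes. Its part in the opposite medians was not tested. Single mice held many of the extremes of these lists. Of 42 ribosomal protein genes, CFO2 was lowest of the 12 older mice for 24 and DMO5 for 15, while DFO5 was highest for 19 and CMO6 for 14. Of 31 interferon-stimulated genes, DFO5 was lowest for 15 and CMO6 for 12, while CFO2 and DFO4 were highest for 11 each and DMO5 for 7. The fits by sex were repeated without DFO4 only.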

How the data were processed

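RNA of the left hippocampus of 18 mice was sequenced. The labels name polyA RNA and TruSeq libraries, whereas the study's methods describe ribosomal RNA removal, and this was not settled here. STAR, DESeq2 and the build mm10 are named in the submitters' processing notes. The study's methods add fastp and TEtranscripts, which shares reads with many matches among TEs, and a second pipeline, RepEnrich2; which of them made the deposited TE table is not given in the sources used here. The authors deposited whole-number counts, not normalized, in 1 table for genes and 1 for TEs; 2 TEs with gene names were renamed, and 0 columns of per-sample values were left out.

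Counts were tested with edgeR 4.0.16 (R 4.3.3, limma 3.58.1): TMM factors over genes and TEs, a mean count above 10 over the 18 mice, and 1 model of 3 groups. The 2 tables were fitted together. CPM values use the TMM-scaled totals, and list levels are mean log2 CPM with a prior count of 2. Shares of counts were compared by exact permutation (scipy 1.17.1). Python 3.11.15 and matplotlib 3.10.9 served for tables and figures. The scripts were tested on simulated data. Every pair of mice within a group differed beyond sampling noise (chi-square per degree of freedom at least 9.39). Of 15644 gene names, 15566 matched the GENCODE annotation of mm10. Of 41 gene lists, 1 (mitochondrially encoded) had no gene in the table.

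The rule for named genes took, in either fit (with and without DFO4), the 10 genes of smallest p per direction, the 2 members of smallest p per list and the 4 TEs of smallest p per direction, besides the genes the study singles out, L1Md_ and IAP TEs, and TMSB10 with TMSB4X. Not all are described, a few items are not reported here, and PRKCD, TCF7L2, SHOX2, NEUROD6, PROX1, DSP, C1QL2, FIBCD1, WFS1, TTR, FOLR1, COL8A1, POLG, SPCS1 and 8 genes named for groups that did not overlap stand outside it, chosen after their values were seen. The members and lists were chosen with earlier results of these data known. Alternatives were DESeq2 1.42.0, RLE factors, total counts only, genes only, no filter, a mean count above 100, fits to older mice alone, a term for sex, a term for the thalamus list, counts per gene count for TE shares, and leaving out each older mouse. The neocortex list as a term and leaving out DMO2 with DFO4, and the fits of each sex without DFO4, were added after seeing the data. Intervals of 95% are those of the fits.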

Additional observations from a re-analysis of the deposited data

Results flagged for a closer look

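Within the 6 older 3TC-treated mice, 1 mouse stood apart from the nearest other by more than Dixon's 95% critical value for 7 quantities, of 132 groups of values examined, where about 1 in 20 (6.6 groups) would do so by chance. The ratio given is that of the gap to the whole range of the group.

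DFO4 was the mouse apart in 4 of them. Its mean log2 CPM of the thalamus list was 4.7, against 3.14 in the next mouse (ratio 0.929), and that of the hippocampal principal neuron list was 2.65, against 3.43 in the next (0.639). CHRNA4 was at 26.6 CPM, against 12.2 CPM in the next mouse (0.844) and HTR2C at 36.2 CPM against 12.5 CPM (0.839). DFO4 had been set apart beforehand for its thalamic RNA, so its flag on the thalamus list was fixed in advance. CHRNA4 and HTR2C were examined because of their small p in these same data. The 7 flags are therefore not independent findings to set against 6.6. They do not cover every list. In DFO4 the mean log2 CPM of immediate-early genes was 2.49, against 3.05 to 3.13 in the other treated mice. For oligodendrocyte precursor genes it was 3.54 in DFO4, against 3.12 to 3.26. DFO5 was highest for TBK1, at 19.3 CPM against 15.5 CPM (0.703), and for IFNAR1, at 18.4 CPM against 16.0 CPM (0.691), and DMO5 for IFNA5, at 0.498 CPM against 0.235 CPM (0.749).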

How the results depend on the processing

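No paired analysis was possible because the labels name no pairs of treated and control mice. No setting gave a call. At an unadjusted p under 0.05, the number of features higher with all mice (141) was 62 with total counts only, 93 with older mice only, 66 with the thalamus list as a term and 217 with the neocortex list as a term, and 80 to 321 when each older mouse was left out in turn. The number lower (53) was 23 with total counts only, 29 with older mice only, 177 with the neocortex list as a term and 24 to 195 over the mice left out. Without DFO4, the number higher (80) was 17 with total counts only, 48 with older mice only and 31 without DMO2, and the number lower (38) was 59 with a mean count above 100 and 14 without DMO2. For the difference between the sexes, the number higher (725) was 470 with older mice only. The causes were not tested.

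Leaving out each older mouse, the median of the thalamus list was 0.02 to 0.6 and that of the neocortical list 0.02 to 0.14. The difference in the share of counts was -2.51 to 1.44 points for all TEs, -1.48 to 0.168 for LINEs, -0.262 to 0.667 for SINEs, -0.838 to 0.599 for LTR elements and -0.0576 to 0.0583 for DNA transposons, so that the sign of each turned with single mice. As counts per gene count, the difference for SINEs was -0.0267.

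Of 1152 values of 53 named genes over all settings, 1109 kept their sign and 43 in 11 genes turned it, the log2 fold changes of which ranged, over the mice left out, from -0.58 to 0.12 for HTR2C, -0.13 to 0.03 for SOD3, -0.09 to 0.14 for APOE, -0.15 to 0.04 for TMEM173, -0.05 to 0.12 for MOV10, -0.11 to 0.18 for IFNG, -0.26 to 0.03 for TNF, -0.24 to 0.13 for IL1B, -0.13 to 0.34 for IFNB1, -0.47 to 0.04 for IFNA1 and -0.06 to 0.04 for IFNAR1. With the thalamus list as a term APOE was at -0.07, IL1B at 0.05 and IFNAR1 at 0.00, and IFNAR1 was at 0.00 with total counts only. Intervals were wide for genes with few counts, such as IL6 and IFNB1.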

Other observations

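The remaining region lists had medians near 0. Of 13 habenular genes, 8 were above 0 (median 0.06) and 9 without DFO4 (median 0.06), and the summed level was 50.3 to 72.9 CPM in treated and 47.7 to 66.4 CPM in control mice. Of 15 striatal genes, 9 were above 0 (median 0.02) and 5 without DFO4 (median -0.04). Genes of monoaminergic neurons went from a median of 0.09 (9 of 13 above 0) to -0.07 (3 of 13) without DFO4, in which their summed level was 133 CPM, against 37.1 to 67.8 CPM in the other treated and 41.9 to 72.1 CPM in the control mice.

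Among interneuron and neuropeptide genes, PVALB, the calcium-binding protein of fast-spiking cells, went from 0.53 to 0.02 without DFO4, and VIP, a neuropeptide of interneurons, from 0.17 to 0.35. Among vascular genes, FLT1, a receptor of VEGF, was at 0.26 with and 0.16 without DFO4. Genes of neurogenesis and proliferation had a median of 0.06 (14 of 21 above 0), with STMN1, a microtubule regulator, at 0.40 and 0.34. The younger male YM1 had a summed thalamic level of 561 CPM, against 292 to 351 CPM in the other 5 younger mice.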
